A study of Homo sapiens with 4 samples.

Results

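Interferon beta (IFNB1), interferon lambda 1 (IFNL1) and the chemokines CCL5, CXCL10 and CXCL11 were followed as a set of 5 genes, of 33538 genes listed in the count matrices. They were picked by symbol because earlier results from these same cells had shown them in the shAPC library of day 3, so their levels in the libraries are given as a description without a test. The cells were HCEC 1CT (1CT), a line of normal human colonic epithelium immortalised with TERT and CDK4 and described by the submitters as epithelial progenitors. They carried either an shRNA against the tumour suppressor APC (shAPC) or a scrambled shRNA (shScr), were grown with puromycin after transduction, and were harvested 3 or 7 days later for droplet-based single-cell RNA sequencing. All 4 groups shared the line, the medium and the selection, each group was 1 library made with 1 shRNA, and no untransduced cells were analysed here. With 1 library per group no difference could be tested, and every interval below is a 95% interval that covers counting error only.

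Interferon beta is a type I interferon that many cell types can make when their sensors meet double-stranded RNA or cytosolic DNA, through the kinases TBK1 and IKBKE and the factors IRF3, IRF7 and NF-kB. The secreted protein binds the receptor IFNAR1/IFNAR2 on the producing cell and its neighbours, and signals through the kinases JAK1 and TYK2 and factors that include STAT2 and IRF9 to a large set of interferon-stimulated genes. IFNL1 is a type III interferon that uses IFNLR1 and IL10RB and acts mainly on epithelia. CXCL10 and CXCL11 attract T cells and NK cells through CXCR3, and CCL5 attracts T cells and monocytes through receptors that include CCR1 and CCR3. All 3 chemokines can be induced by interferon or by NF-kB.

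IFNB1 lies at chr9:21077104-21077942 on the minus strand, IFNL1 at chr19:39296407-39298673 on the plus strand, and CCL5 at chr17:35871491-35880793 on the minus strand. CXCL10 (chr4:76021118-76023497) and CXCL11 (chr4:76033682-76041415) are neighbours on the minus strand of chromosome 4. All 5 are protein-coding genes (GRCh38, GENCODE). The 250 bases before the transcription start that RefSeq gives (GRCh38.p14) were at hand for 4 of the 5 members. For CXCL11 that start lies inside the GENCODE gene, which begins further upstream. They are shown for the motifs that the members share, and the capitals mark matches to the NF-kB (kB) consensus and to a pair of GAAA with 2 bases of any kind between them, the core of the interferon-stimulated response element (ISRE), both searched on both strands.
IFNB1: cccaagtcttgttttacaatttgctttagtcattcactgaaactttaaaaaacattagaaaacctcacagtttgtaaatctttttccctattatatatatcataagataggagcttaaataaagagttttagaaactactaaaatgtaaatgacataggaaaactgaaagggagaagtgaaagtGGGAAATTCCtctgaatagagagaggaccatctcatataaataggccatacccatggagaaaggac
IFNL1: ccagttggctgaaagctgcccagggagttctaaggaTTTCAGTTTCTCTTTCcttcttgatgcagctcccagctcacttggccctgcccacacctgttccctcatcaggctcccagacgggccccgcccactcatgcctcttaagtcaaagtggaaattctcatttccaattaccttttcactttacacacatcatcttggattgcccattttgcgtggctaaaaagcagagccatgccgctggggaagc
CXCL10: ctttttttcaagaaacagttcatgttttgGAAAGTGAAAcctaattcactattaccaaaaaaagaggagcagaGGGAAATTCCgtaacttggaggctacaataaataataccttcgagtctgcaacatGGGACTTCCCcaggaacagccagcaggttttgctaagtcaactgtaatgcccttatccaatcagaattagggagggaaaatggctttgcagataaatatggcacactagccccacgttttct
CXCL11: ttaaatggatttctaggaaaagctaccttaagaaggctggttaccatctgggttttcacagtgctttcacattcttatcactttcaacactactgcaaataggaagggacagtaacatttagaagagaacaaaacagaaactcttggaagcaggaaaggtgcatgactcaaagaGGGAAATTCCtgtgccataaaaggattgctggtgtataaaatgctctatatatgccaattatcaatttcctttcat
These sequences are at chr9:21077943-21078192 (IFNB1, minus strand), chr19:39296157-39296406 (IFNL1, plus strand), chr4:76023498-76023747 (CXCL10, minus strand) and chr4:76036071-76036320 (CXCL11, minus strand). The kB consensus stood at -66 to -57 in IFNB1, at -177 to -168 and -122 to -113 in CXCL10 and at -76 to -67 in CXCL11, counted back from the start site. The same 10 letters, GGGAAATTCC, filled it once in each of these 3 genes. Of 35116 promoter windows of this length, 3498 (9.96%) held the consensus. The ISRE core stood at -221 to -212 in CXCL10, and in IFNL1 a pair of overlapping matches lay on the opposite strand at -214 to -205 and -208 to -199. It was found in 1061 of the windows (3.02%), and CXCL10 was 1 of 71 windows (0.202%) with both motifs. The 2 motifs overlap in none of the 4 windows shown. These matches describe the letters and do not show binding.

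Barcodes with at least 200 genes, at least 500 UMIs (unique molecular identifiers, each standing for 1 captured RNA molecule) and under 5% mitochondrial UMIs were kept as cells. This left 1116 cells in shScr day 3, 788 in shAPC day 3, 2600 in shScr day 7 and 1478 in shAPC day 7, the order in which sets of 4 values are given below, with 28451455 to 39797418 UMIs per library. Median UMIs per cell ranged from 1330 (shScr day 7) to 49685.5 (shAPC day 3), so shares of cells with a UMI do not stand on an equal depth, and levels were compared as UMIs relative to a total of 1000000 (CPM) summed over the cells of a library. APC was at 16.1 CPM in shScr day 3 and 5.52 in shAPC day 3, and at 19.1 and 6.61 at day 7. Of 8 epithelial markers, EPCAM had 2, 1, 0 and 2 UMIs, VIL1 2 or fewer, CDH1 1 or fewer and CDX2 0 in every library, while KRT8 was at 9.57 to 19.4 CPM, CLDN7 at 6.26 to 16.9, KRT18 at 3.02 to 7.13 and KRT19 at 2.34 to 5.72. The mesenchymal gene VIM was at 4010.2 to 5303 CPM. Up to 19 barcodes were shared by a pair of libraries, the most by shScr day 3 and shAPC day 3. None of these had a UMI of the 5 genes in the first library of its pair, in the order above. The second library of each pair was not checked. Without shared barcodes the log2 shAPC/shScr ratio at day 3 was at least 8.35 for IFNB1. It was 5.35 for CCL5, 3.82 for CXCL10 and 5.35 for CXCL11.

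IFNB1 was high in 1 library and came from very few cells. Its UMIs numbered 0 in shScr day 3, 829 in shAPC day 3, 11 in shScr day 7 and 1 in shAPC day 7. In CPM these were 0, 23.7 (22.1 to 25.4), 0.352 (0.176 to 0.630) and 0.0351 (0.000890 to 0.196). Against a floor of 3 UMIs for the library at 0, IFNB1 was at least 315-fold higher in shAPC than in shScr at day 3. A UMI was found in 0 of 1116 cells of shScr day 3, which by the floor of 3 counts allows a share of up to 0.269% of cells with a UMI, and in 16 of 788 cells (2.03%) of shAPC day 3. Neither share limits the cells that express the gene below detection.

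Within shAPC day 3, single cells held 585, 176, 53 and 3 IFNB1 UMIs, and 12 further cells held 1 each. The 3 highest cells carried 98.2% of all IFNB1 UMIs of the library, and the highest alone 70.6%. Without that cell the day 3 ratio was still at least 6.54 on the log2 scale, and without the 4 cells at 3 or more UMIs at least 2.21. The 12 cells with 1 UMI were deep, with a median of 85888 UMIs against 48938.5 in the 772 cells with none. Outside the 4 cells IFNB1 was at 0.348 CPM in the kept cells and at 0.359 CPM (2 UMIs) in the barcodes that the filters removed, and the part of free RNA in single UMIs was not tested. In shScr day 7 the 11 UMIs lay in 3 cells with 5, 4 and 2, of which 1 also had CCL5 (3 UMIs) and none had CXCL10 or CXCL11.

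IFNL1 was represented by a single UMI in all 4 libraries, which lay in the shAPC day 3 cell with 585 IFNB1 UMIs. No fold is given for it. Of 19 other interferon genes (13 IFNA genes, IFNE, IFNK, IFNW1, IFNG, IFNL2 and IFNL3), 18 had no UMI in any library. IFNE, a type I interferon known from the epithelium of the reproductive tract, was at 0.955, 1.86, 1.28 and 1.83 CPM in the 4 libraries, and had no UMI in the 4 IFNB1-rich cells.

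**Figure D1:**
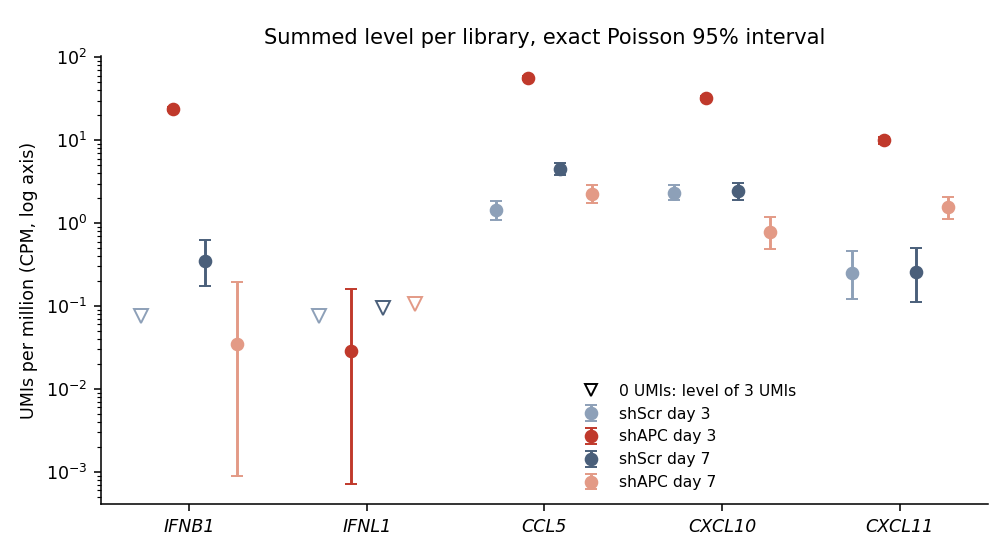
Summed level of the 5 genes in each library, in CPM on a log axis, with exact Poisson 95% intervals as bars and open triangles at the level of 3 UMIs where none was counted. The shAPC day 3 points of IFNB1 (23.7), CCL5 (56.1), CXCL10 (32.1) and CXCL11 (9.90) lie above the intervals of the other 3 libraries, and IFNL1 has 1 UMI in all.

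CCL5 was found in more cells than any other member. It had 57 UMIs in 16 cells of shScr day 3, 1961 in 142 cells of shAPC day 3, 142 in 61 cells of shScr day 7 and 64 in 21 cells of shAPC day 7. The levels were 1.43 (1.08 to 1.86), 56.1 (53.7 to 58.7), 4.55 (3.83 to 5.36) and 2.25 (1.73 to 2.87) CPM in that order. At day 3 the log2 shAPC/shScr ratio was 5.29 (4.91 to 5.70). At day 7 it was -1.02 (-1.46 to -0.58), and -1.61 without the highest cell of each library. Within shScr, CCL5 was 1.67 (1.21 to 2.14) higher on the log2 scale at day 7 than at day 3.

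CXCL10 stood at 93, 1122, 76 and 22 UMIs in the 4 libraries. These lay in 19, 67, 39 and 12 cells and amounted to 2.34 (1.89 to 2.86), 32.1 (30.3 to 34), 2.43 (1.92 to 3.05) and 0.773 (0.485 to 1.17) CPM. The day 3 ratio was 3.78 (3.47 to 4.10) and the day 7 ratio -1.65 (-2.41 to -0.95), both on the log2 scale. Within shScr the log2 day 7/day 3 ratio was 0.06, with an interval that included 0 (-0.40 to 0.51).

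CXCL11 had 10, 346, 8 and 44 UMIs in 7, 51, 7 and 10 cells, in the same order of libraries. Its levels were 0.251 (0.120 to 0.462), 9.90 (8.89 to 11), 0.256 (0.111 to 0.505) and 1.55 (1.12 to 2.08) CPM. The log2 ratio at day 3 was 5.30 (4.40 to 6.37). CXCL11 alone among the chemokines was also above shScr at day 7, by 2.59 (1.49 to 3.89), but 34 of the 44 UMIs came from 1 cell. Without the highest cell of each library the day 7 value was 0.87. That cell also held the only IFNB1 UMI of shAPC day 7 and 3 CCL5 UMIs, and no CXCL10.

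From day 3 to day 7 within shAPC the log2 ratio was -9.40 (-14.70 to -6.92) for IFNB1, -4.64 (-5.02 to -4.28) for CCL5, -5.38 (-6.06 to -4.77) for CXCL10 and -2.68 (-3.17 to -2.22) for CXCL11. Day 3 was thus higher than day 7 in shAPC for all 4 genes that had over 3 UMIs in either library, beyond the counting intervals. For context, 10.3% of 14505 genes with at least 20 UMIs were at least 2-fold higher in shAPC at day 3 and 0.91% at least 2-fold lower, with 4 of 4 members that passed this count on the high side. By TMM scaling, which places the shAPC day 3 library 0.37 lower on the log2 scale, 732 genes were higher and 372 lower in place of 1493 and 132. At day 7, 5.11% were higher and 2.67% lower, with 1 (CXCL11) and 2 (CCL5, CXCL10) of 3 members. Within shAPC 8.56% were at least 2-fold lower at day 7, with 4 of 4 members, and 1.72% higher, with none, and within shScr 2.01% were higher, with CCL5 as 1 of 2 members. Since the members were picked for this pattern, nothing is read from these counts.

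Cells with a UMI of each chemokine were more frequent in shAPC at day 3. CCL5 was found in 18% of shAPC day 3 cells (15.4 to 20.9) and 1.43% of shScr day 3 cells (0.822 to 2.32), where the median depths were 49685.5 and 35109 UMIs. The corresponding shares were 8.50% (6.65 to 10.7) and 1.70% (1.03 to 2.65) for CXCL10, and 6.47% (4.86 to 8.42) and 0.627% (0.253 to 1.29) for CXCL11. When each cell was thinned to 5000 UMIs, which left out 172 of the shAPC and 307 of the shScr cells, the shares were 8.28% and 0.865% for CCL5, 3.90% and 0.989% for CXCL10, and 2.44% and 0.247% for CXCL11. IFNB1 was then left in 3 of 616 shAPC cells and 0 of 809 shScr cells. No cell type that should lack these genes was at hand in the libraries, so the share that free RNA gives was not measured. In shAPC day 3, 62 of the 142 CCL5 cells, 31 of the 67 CXCL10 cells and 25 of the 51 CXCL11 cells held a single UMI. The barcodes removed by the filters held CCL5 at 11.1 CPM, CXCL10 at 7.01 and CXCL11 at 0.539 in shAPC day 3, against 4.01, 1.90 and 0 in shScr day 3. The part of free RNA in the shares was not tested.

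The chemokine UMIs were less concentrated than those of IFNB1. In shAPC day 3 the highest cell held 15.9% of the CCL5 UMIs, 38.9% of the CXCL10 UMIs and 23.7% of the CXCL11 UMIs. CCL5 needed 7 cells to reach 50% of its UMIs and 41 cells to reach 90%, CXCL10 needed 2 and 15 cells, and CXCL11 4 and 22 cells. IFNB1 reached 50% with 1 cell and 90% with 2. Cells with 10 or more UMIs numbered 32 for CCL5, 13 for CXCL10 and 7 for CXCL11 in shAPC day 3, against 2, 4 and 0 in shScr day 3.

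**Figure D2:**
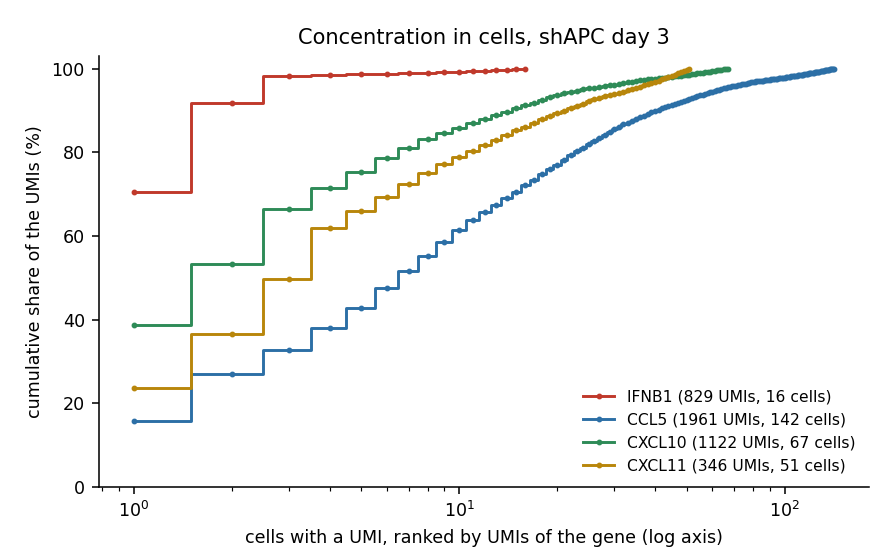
Cumulative share of the UMIs of each gene (vertical axis, percent) over its cells ranked from the highest, on a log axis, in shAPC day 3. IFNB1 reaches 98.2% with 3 cells, whereas CCL5 is spread over 142 cells and takes 41 of them to reach 90%.

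Chemokines were found together in the same cells. Of the 67 cells with CXCL10 in shAPC day 3, 32 (47.8%, 35.4 to 60.3) also had CCL5, against 110 of 721 cells (15.3%, 12.7 to 18.1) without CXCL10. Of the 51 cells with CXCL11, 33 (64.7%, 50.1 to 77.6) had CCL5 and 30 (58.8%, 44.2 to 72.4) had CXCL10. Among the 737 cells without CXCL11 these shares were 14.8% and 5.02%. Of the 142 CCL5 cells, 22.5% had CXCL10 and 23.2% had CXCL11. Cells with more UMIs have more chance of showing any gene, and the 22 cells with all 3 chemokines had a median of 63095 UMIs against 46747 in the 601 cells with none. After thinning to 5000 UMIs, CCL5 was in 12 of 24 CXCL10 cells (50%, 29.1 to 70.9) and in 6.59% of the cells without CXCL10. It was in 11 of 15 CXCL11 cells (73.3%, 44.9 to 92.2) and in 6.66% of the cells without CXCL11. CXCL10 was in 7 of the 15 CXCL11 cells (46.7%, 21.3 to 73.4) and in 2.83% of the others.

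All 3 chemokines were detected in 22 shAPC day 3 cells (2.79%), in 1 shScr day 7 cell and in no cell of the other 2 libraries. In shScr day 3, 4 of 19 CXCL10 cells had CCL5 and 6 of 19 had CXCL11. The highest CXCL10 cell of that library, with 27 CXCL10 UMIs, was also its highest CXCL11 cell, with 4, and had no CCL5. Of the 16 shAPC day 3 cells with IFNB1, 9 had CCL5, 6 CXCL10 and 7 CXCL11.

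**Figure D3:**
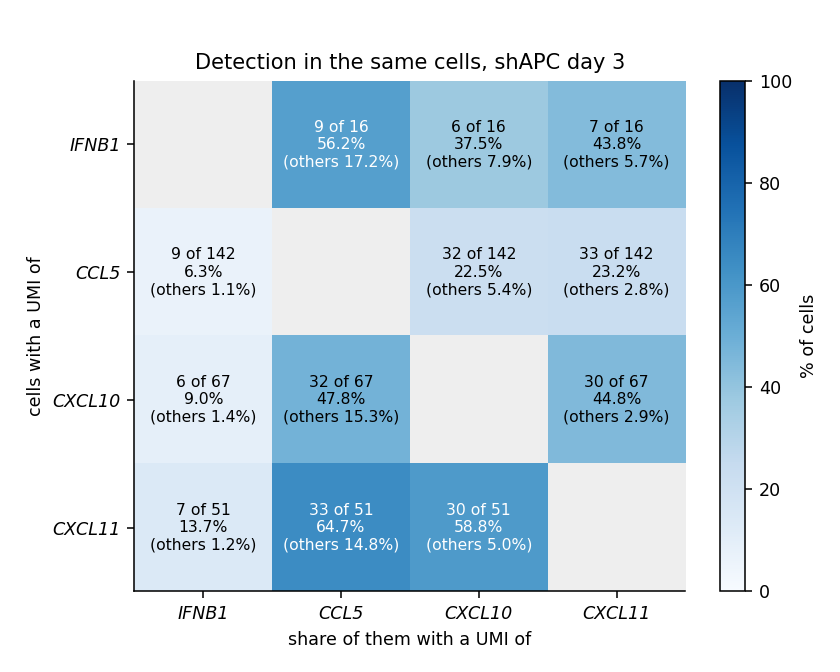
Share of shAPC day 3 cells with a UMI of the row gene that also had a UMI of the column gene, with the counts and, in parentheses, the share among cells without the row gene; colour runs from 0 to 100%. Every share exceeds the one in parentheses, as in the CXCL11 row, where 64.7% had CCL5 and 58.8% had CXCL10 against 14.8% and 5.02%.

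The 4 cells with at least 2 IFNB1 UMIs, called IFNB1 cells below and numbered by their IFNB1 UMIs (585, 176, 53 and 3), carried all 3 chemokines each. CCL5 was at 217, 311, 35 and 5 UMIs in cells 1 to 4, CXCL10 at 436, 14, 10 and 1, and CXCL11 at 82, 45, 11 and 1. They made up 0.508% of the cells and 1.26% of the UMIs, and held 29.0% of the CCL5, 41.1% of the CXCL10 and 40.2% of the CXCL11 UMIs of the library. CXCL10 was thus dominated by cell 1, whereas CCL5 was highest in cell 2. The cells had 96804, 100207, 61129 and 183012 UMIs in all and 0.91% to 2.79% mitochondrial UMIs, and cell 4 was the deepest of the 788. No doublet caller was run and whether any of them held 2 cells was not tested.

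In CPM the 4 cells together were at 1288 for CCL5, 1045 for CXCL10 and 315 for CXCL11, against 41.0, 19.2 and 6.10 in the 772 cells without IFNB1. These are log2 ratios of 4.97 (4.83 to 5.12), 5.76 (5.59 to 5.94) and 5.69 (5.37 to 6.01). Without cell 1 they were 4.64, 1.92 and 4.76, and without cell 4 they were 5.73, 6.53 and 6.45. Cell 4 itself was at 27.3 CPM for CCL5 and 5.46 each for CXCL10 and CXCL11. These values are below the levels of the 772 cells without IFNB1. Among 11135 genes with at least 50 UMIs in these 2 sets of cells, 21% were at least 2-fold higher in the IFNB1 cells and 13.4% at least 2-fold lower, so that a 2-fold difference is common in a sum of 4 cells. The 4 cells did not make up the whole of the chemokine signal: without them CCL5 was at 40.4 CPM in 138 cells, CXCL10 at 19.2 CPM in 63 cells and CXCL11 at 6.0 CPM in 47 cells. The day 3 shAPC/shScr log2 ratio without them was 4.82 for CCL5, 3.04 for CXCL10 and 4.58 for CXCL11.

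Cells high in chemokines without IFNB1 were also present. A cell with 161 CXCL10 UMIs had 18 CCL5 and 3 CXCL11 UMIs, another with 148 CXCL10 UMIs had 93 CCL5 and 45 CXCL11 UMIs, and another with 117 CCL5 UMIs had 58 CXCL10 and 5 CXCL11 UMIs. None of these 3 cells had an IFNB1 UMI. Of the 12 cells with 1 IFNB1 UMI, 1 had 17 CCL5 and 16 CXCL10 UMIs, and each of the others had 3 or fewer UMIs of any chemokine.

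**Figure D4:**
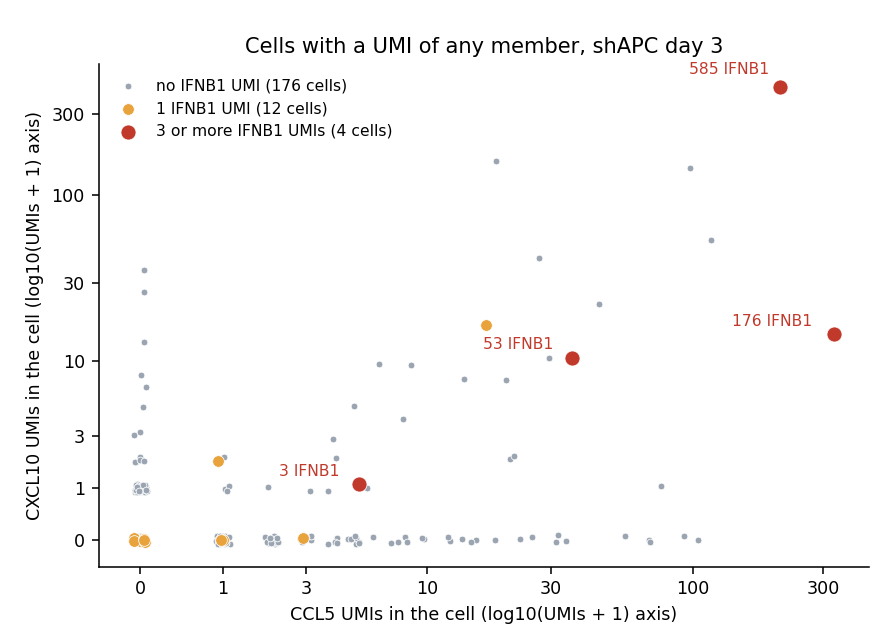
UMIs of CCL5 (horizontal) and CXCL10 (vertical) in each shAPC day 3 cell with a UMI of any of the 5 genes, on log10(UMIs + 1) axes with a small random offset so that cells at the same values can be seen. The 4 red cells are labelled with their IFNB1 UMIs (585, 176, 53 and 3); grey cells with no IFNB1 UMI reach 161 CXCL10 and 117 CCL5 UMIs.

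Beside the members, the 12 genes with the largest ratio of IFNB1 cells to the 772 others included CCL3, DCDC2C, LRRN3, CH25H, HOXB9, AL355353.1, OTUD1, ISG20, HERC5 and RSAD2, with CXCL10 and CXCL11 in the 11th and 12th places. In the 772 others CCL3, DCDC2C, LRRN3, HOXB9 and AL355353.1 had 7, 9, 23, 25 and 35 UMIs. They passed the limit of 50 UMIs only through the IFNB1 cells, so their high places follow in part from that limit. CCL3, a chemokine of the macrophage inflammatory family with a near-identical copy in the genome between which reads may be split, had 76, 0, 7 and 0 UMIs in cells 1 to 4 and 7 UMIs in all the others (log2 9.81, 8.71 to 11.17). CH25H, the enzyme that makes the antiviral sterol 25-hydroxycholesterol, had 71, 44, 18 and 0 UMIs (7.47, 7.01 to 7.94). ISG20, an RNA exonuclease induced by interferon, had 42, 21, 161 and 1 UMIs (6.03, 5.77 to 6.29). HERC5, the ligase that attaches ISG15 to proteins, had 85, 46, 37 and 1 UMIs, and RSAD2, which encodes the antiviral protein viperin, had 82, 25, 7 and 0. OTUD1, a deubiquitinase, had 40, 23, 1 and 0.

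Several of these genes came from only 1 or 2 of the cells. DCDC2C had all its 42 UMIs in cell 4, LRRN3 had 41 and 32 in cells 1 and 2, and AL355353.1 had 39 of its 40 in cell 1. HOXB9, a homeobox factor, was the only one besides ISG20, HERC5, CXCL10 and CXCL11 with a UMI in each cell (20, 8, 12 and 4). At the low end stood ID1, an inhibitor of basic helix-loop-helix factors, CTGF, a matricellular growth factor, EMP1, SMIM3, PTX3, a secreted pentraxin, and NT5DC2. ID1 had 1 UMI in the 4 cells (2.27 CPM) against 158 CPM in the others (log2 -6.12, -11.42 to -3.64), and PTX3 had 6 UMIs (13.6 CPM) against 321 CPM (-4.56, -6.01 to -3.44). CTGF, EMP1, SMIM3 and NT5DC2 also had 1 UMI each.

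Of all genes with at least 50 UMIs over the 4 libraries (13885 genes), IFNB1 ranked second by the share of its summed CPM that lay in shAPC day 3 (98.4%), after CCL3 (100%). CCL5 ranked 10th (87.2%), CXCL10 14th (85.3%) and CXCL11 17th (82.8%). Since the members were picked because they had been seen in this library, their ranks follow from that choice and are no evidence. IFNB1 and CCL3 also reached the limit of 50 UMIs only through shAPC day 3. The 3rd to 8th were BTNL8, DHRS2, RSAD2, DCDC2C, NEURL3 and KCNN2. They too reached the limit of 50 UMIs only through shAPC day 3, so their ranks are no evidence either. Most of these too came from few cells, but not always from the IFNB1 cells: BTNL8, DHRS2 and KCNN2 had 99.0%, 95.1% and 93.7% of their UMIs in 3 cells each and none in the IFNB1 cells. The IFNB1 cells held 92.2% of the CCL3, 82.4% of the DCDC2C, 41.6% of the RSAD2 and 29.1% of the NEURL3 UMIs.

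The interferon receptors differed by less than 2-fold at day 3. IFNAR1 was at 29.6, 29.4, 29.4 and 23.3 CPM and IFNAR2 at 8.87, 9.07, 10.5 and 6.96 CPM in the 4 libraries. IL10RB, the second chain of the lambda receptor, was at 6.56 and 6.01 CPM at day 3, while IFNLR1, its first chain, had 0 UMIs in the IFNB1 cells and 2 in the cells without IFNB1. CXCR3 and CCR3 had no UMI in any library and CCR1 at most 1. Of 9 receptor genes, 3 had at least 20 UMIs at day 3, and 0 of these were past 2-fold either way. Among all genes tested 10.3% were at least 2-fold higher and 0.91% lower, so 3 genes are too few to read from.

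Cytosolic sensors of RNA were higher in shAPC day 3 and highest in the IFNB1 cells taken as a sum, though not in each of them. IFIH1, which encodes the double-stranded RNA sensor MDA5, was at 4.90 CPM in shScr day 3 and 27.4 in shAPC day 3 (log2 2.49, 2.26 to 2.72). Its UMIs in cells 1 to 4 were 66, 49, 99 and 3, which gives 492 CPM against 21.2 in the cells without IFNB1. DDX58, the gene of RIG-I, was at 6.99 and 23.9 CPM at day 3 and had 62, 12, 18 and 1 UMIs in the 4 cells. DHX58, the related gene of LGP2, had 12, 14, 11 and 3. In cell 4 IFIH1 was at 16.4 CPM and DDX58 at 5.46, below the 21.2 and 21.1 of the cells without IFNB1. DHX58 was at 16.4 CPM in cell 4 against 8.46. TMEM173, which encodes the DNA pathway adaptor STING, went the other way, with 46.2 CPM in shScr and 29.7 in shAPC at day 3 (log2 -0.64, -0.75 to -0.53) and 4 UMIs in the 4 cells (9.07 CPM). Of 11 sensors and adaptors, 10 had at least 20 UMIs at day 3, and 4 of these (DDX58, IFIH1, DHX58 and IFI16) were at least 2-fold higher and 0 lower, against 10.3% and 0.91% of all genes tested, with a median log2 ratio of 0.88 against 0.35.

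Of 15 kinases and factors that act on the IFNB1 promoter or upstream of it, 14 were counted at day 3, and 4 were at least 2-fold higher (IRF1, IRF7, JUN and ATF3) against 10.3% of all genes tested, with a median log2 ratio of 0.57 against 0.35. IRF1 was at 9.85 CPM in shScr day 3 and 56.4 in shAPC day 3, and IRF7, the factor that amplifies interferon production, at 11.1 and 43.5. IRF1 was found in each IFNB1 cell, with 35, 58, 31 and 119 UMIs, and so was IRF7, with 28, 16, 44 and 7. ATF3, a stress-induced member of the ATF family, was at 1.03 and 44.7 CPM at day 3 (log2 5.44, 4.99 to 5.92) and had 66, 52, 139 and 53 UMIs in the 4 cells, where it was at 703 CPM against 34 in the cells without IFNB1. TBK1 and IRF3, a kinase and the factor it phosphorylates, were at 11 and 33.1 CPM in shAPC day 3 against 8.82 and 25.9 in shScr day 3.

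Downstream of the receptor, STAT2 was at 36.3 CPM in shScr day 3 and 58.6 in shAPC day 3. None of the 6 genes of this branch was past 2-fold at day 3, against 10.3% of all genes tested higher and 0.91% lower. Their median log2 ratio was 0.49 against 0.35 over all genes. IRF9 had 3, 0, 0 and 0 UMIs in the IFNB1 cells. Among the 6 feedback inhibitors, USP18, which blocks signalling at IFNAR2, and TNFAIP3, which blocks NF-kB signalling, were at least 2-fold higher at day 3, with a median log2 ratio of 0.75 over the 6 against 0.35 over all genes and 10.3% of these past 2-fold. USP18 had 32, 17, 30 and 4 UMIs and TNFAIP3 136, 13, 5 and 254 UMIs in the 4 cells. SOCS3, an inhibitor of STAT3 signalling, had no UMI there and was at 22.8 CPM in the others.

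All 19 interferon-stimulated genes of the list were at least 2-fold higher in shAPC at day 3, against 10.3% of all genes tested, with a median log2 ratio of 2.32 against 0.35, and ranged from IFI44 at 1.65 to RSAD2 at 4.96. At day 7, 18 of them were counted, and 0 were at least 2-fold higher and 8 at least 2-fold lower in shAPC, against 5.11% and 2.67% of all genes tested. This list was also chosen with earlier results in view, so its direction is no independent evidence. ISG15, a ubiquitin-like modifier, was at 268, 1199, 313 and 143 CPM in the 4 libraries, and had 1177, 1205, 1379 and 241 UMIs in the 4 IFNB1 cells. IFIT2, which binds viral RNA, had 495, 385, 101 and 2 there, and OASL, an antiviral member of the 2′-5′-oligoadenylate synthetase family, 259, 148, 207 and 1. Cell 4 was thus low for IFIT2, OASL and the chemokines alike. IFI27 had 57, 379, 168 and 468 UMIs in cells 1 to 4, which by their depths was 589, 3782, 2748 and 2557 CPM.

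Interferon-stimulated genes were not confined to cells with a member UMI. The 19 genes summed to 736 CPM in shScr day 3, and to 3239 in the 596 shAPC day 3 cells with no UMI of the 5 genes, which is 2.14 (2.12 to 2.16) higher on the log2 scale. A cell without a UMI may still hold the RNA below detection. Abundant genes weigh most in such a sum. In the 772 cells without IFNB1, ISG15 was at 1079 CPM, IFI27 at 860 and IFI6 at 804, and RSAD2 at 4.61. The 19 genes summed to 4181 CPM in the 159 cells with 1 or 2 chemokines and no IFNB1, 10425.5 in the 17 cells with all 3 chemokines and no IFNB1, 4479 in the 12 cells with 1 IFNB1 UMI, and 20737 in the 4 IFNB1 cells. The median depth of these classes was 46063, 55992, 51642, 85888 and 98505.5 UMIs per cell.

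**Figure D5:**
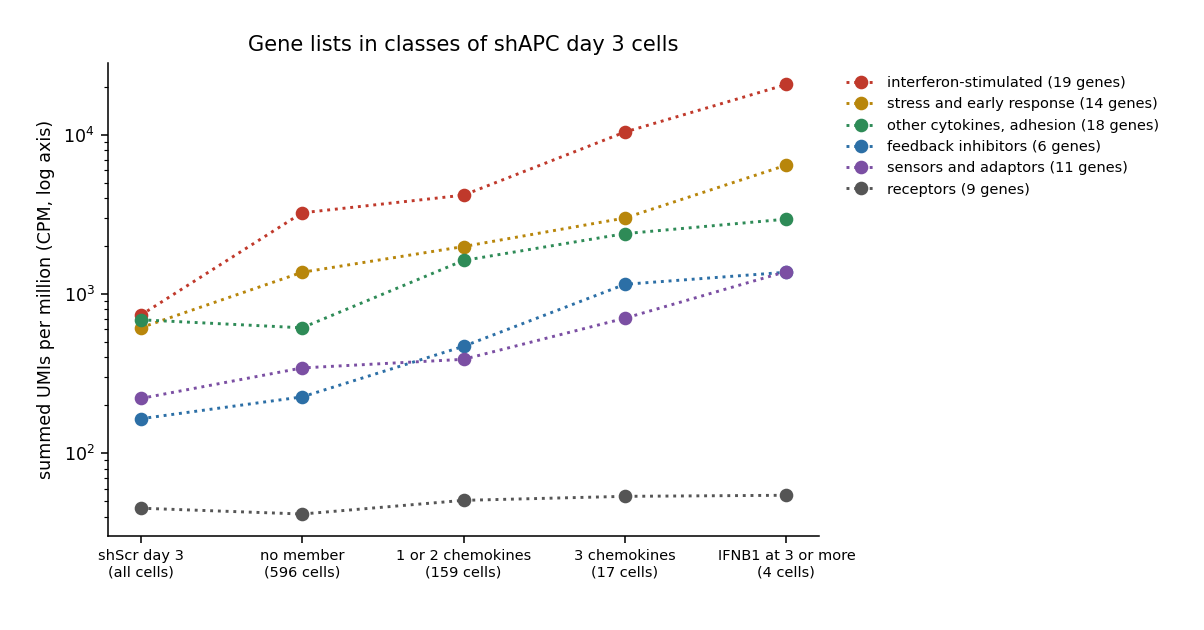
Summed level of 6 gene lists, in CPM on a log axis, in all shScr day 3 cells and in 4 classes of shAPC day 3 cells, with dotted lines that join the values of 1 list. Interferon-stimulated genes go from 736 over 3239 to 20737 CPM, other cytokines are at 689 and 614 CPM in the first 2 classes, and receptors stay between 41.5 and 54.4 CPM.

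The 17 cells with all 3 chemokines and no IFNB1 were set beside the 596 cells with no member UMI, where 5.51% of 11316 genes were at least 2-fold higher and 6.13% at least 2-fold lower. In this comparison 15 of 19 interferon-stimulated genes were at least 2-fold higher, with a median log2 ratio of 2.07 against 0.04 over all genes tested. OASL stood at 456 and 14.8 CPM (log2 4.95, 4.74 to 5.16) and IFIT2 at 561 and 45.0 (3.64, 3.49 to 3.79), while IFI27 differed by only 0.45 (0.36 to 0.54). Of the 6 feedback inhibitors, 4 were at least 2-fold higher (median log2 ratio 2.16), among them NFKBIA, an inhibitor of NF-kB, at 551 and 59.1 CPM (3.22, 3.07 to 3.37), and TNFAIP3 at 415 and 92.1. IRF1 was at 348 and 22.3 CPM (3.96, 3.76 to 4.17). The sensors IFIH1 (106 and 15.3 CPM) and DDX58 (97.3 and 17.2) were higher as well, whereas DDIT3, the stress factor CHOP, was at 115 and 134 CPM.

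Of 18 other cytokines and adhesion molecules, 16 were counted at day 3, and 7 were at least 2-fold higher and 1 lower in shAPC, against 10.3% and 0.91% of all genes tested. In the 3-chemokine cells 10 of 11 counted were at least 2-fold higher than in the cells without a member, against 5.51% of all genes tested. Among them were ICAM1 (276 and 29.1 CPM), CCL20 (141 and 9.32 CPM), CXCL8 (652 and 153) and CCL2 (231 and 43.6). TNFSF10, the death ligand TRAIL, was at 36.1 and 0.588 CPM, but it had under 50 UMIs in these 2 sets and was not counted. CXCL9, a ligand of CXCR3 like CXCL10 and CXCL11, had at most 2 UMIs in a library, and CCL4 had none. The IFNB1 cells differed among themselves: CXCL8, the neutrophil attractant interleukin 8, had 4, 0, 88 and 254 UMIs in cells 1 to 4, CXCL1 had 239, 0, 0 and 80, and IL6 had 55, 14, 0 and 23.

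Of 14 stress and early response genes, 13 were counted in the IFNB1 cells and the 772 others, and 8 were at least 2-fold higher and 1 lower in the IFNB1 cells, against 21% and 13.4% of all genes tested. The lower one was EGR1, an immediate early factor, at 13.6 CPM against 89.0. GADD45A, a growth arrest gene, had 70, 61, 274 and 813 UMIs, DDIT3 had 14, 36, 113 and 181, and PPP1R15A, which restarts translation after stress, had 50, 10, 150 and 68. TRIB3 and CHAC1, targets of the stress factor ATF4, had no UMI in cell 1, 3 each in cell 2, 70 and 13 in cell 3 and 25 and 22 in cell 4. The 14 genes summed to 6460.4 CPM in the IFNB1 cells, 3723 in the cells with 1 IFNB1 UMI, 3005 in the 3-chemokine cells, 1370.4 in the cells with no member and 614 in shScr day 3. The first sum does not stand for each IFNB1 cell. GADD45A was at 723, 609, 4482 and 4442 CPM in cells 1 to 4 against 402 in the 772 others. DDIT3 was at 145, 359, 1849 and 989 CPM against 158. At day 3, 9 of these 14 and 3 of 8 cell death genes were at least 2-fold higher in shAPC, against 10.3% of all genes tested. PMAIP1, which encodes the pro-apoptotic protein NOXA, had 70, 52, 168 and 98 UMIs in the 4 cells (879.5 CPM against 87.1).

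Most markers of immune cells were at 0 in the IFNB1 cells. PTPRC, CD3E, MS4A1, NKG7, CLEC4C, LILRA4, HLA-DRA and TPSAB1 had no UMI in any of the 772 other cells or the 4 IFNB1 cells. Of 14 immune markers, CD68 (8, 7, 1 and 9 UMIs) and CD74 (0, 2, 0 and 1) were the 2 detected in the IFNB1 cells. CD68 was at 56.7 CPM there against 29.1 in the cells without IFNB1. The 14 genes summed to 63.5 CPM in the IFNB1 cells and 29.8 in the cells with no member. By library they summed to 21.9 CPM in shScr day 3 and 18.9 to 32.2 CPM in the others. The IFNB1 cells expressed VIM (432, 284, 179 and 446 UMIs) and FN1 (171, 155, 114 and 334), at 3040 and 1754 CPM against 4986 and 3313 in the 772 others. The 9 mesenchymal markers summed to 6957 CPM in the IFNB1 cells against 11542 in the cells with no member. Against the 772 others 1 of the 9 (ACTA2) was at least 2-fold higher and 1 (PDGFRB, 3 UMIs) lower. The 8 epithelial markers summed to 88.4 CPM against 45.0 in the cells with no member. Of 4 counted against the 772 others, 1 (KRT18) was at least 2-fold higher and 2 (KRT19 and CLDN7) lower. Among all genes tested 21% were higher and 13.4% lower. APC was at 1, 0, 1 and 0 UMIs in the 4 cells.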

How the data were processed

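Single-cell RNA-seq was made from 4 libraries of HCEC 1CT cells, 1 for each shRNA and day. Per the file headers and the methods, the authors aligned reads to hg38 (GRCh38) and counted UMIs per gene and barcode with Cell Ranger, and deposited raw UMI counts over 33538 genes. The version is 3.0.2 in the headers of both shScr libraries and in the submitters' processing notes, which also name STAR, and 3.0.0 in the headers of both shAPC libraries and in the methods, so version and shRNA cannot be told apart. The annotation release is not given in the sources used here. The sources also disagree on the virus (retroviral or lentiviral) and the 10x kit (v2 or V3). The study's ComBat correction and imputation were not used here.

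Barcodes with at least 200 genes, 500 UMIs and under 5% of UMIs from 13 mitochondrial genes were kept, and the other 355, 259, 1052 and 1557 barcodes (shScr day 3, shAPC day 3, shScr day 7, shAPC day 7) were left out. Per the methods, the authors excluded multiplets by the limits on genes and features, and no doublet caller was run here. UMIs were summed per library or class of cells and divided by the total (CPM). Intervals are exact at the 95% level: Poisson for CPM, conditional binomial for ratios, Clopper-Pearson for shares. They cover counting error only, since cells of 1 library are not replicates. Where no UMI was counted, a floor of 3 UMIs per library took its place, and no fold was given where both counts were 3 or lower. Genes past 2-fold were counted among those with at least 20 UMIs over 2 libraries, or 50 over 2 sets of cells. IFNB1 cells had at least 2 IFNB1 UMIs, cells with 1 formed a class of their own, and the others had 0.

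The members and gene lists were chosen with earlier results of these data known. Genes named outside the lists were the 12 highest and 6 lowest ratios of IFNB1 cells to the others among genes with at least 50 UMIs and detected in at least 25% of the cells of the higher side, and the 8 genes with the highest share of their CPM in shAPC day 3. List genes were named if 1 library had at least 4 UMIs, and those at or near 0 only to say so. Scripts in Python 3.11.15 (numpy 2.4.6, scipy 1.17.1, pandas 2.3.3) were tested on simulated counts. TMM factors came from edgeR 4.0.16 and size factors from DESeq2 1.42.0 (R 4.3.3), both only as alternatives in scaling. Promoters were matched by symbol to RefSeq. A few genes of the lists are not reported here.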

Additional observations from a re-analysis of the deposited data

Results flagged for a closer look

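IFNB1, CCL5 and CXCL10 were above shScr in shAPC at day 3 and below it at day 7. The day 7 log2 shAPC/shScr ratio was -3.32 for IFNB1, which rests on 1 UMI in shAPC and 11 in shScr, -1.02 for CCL5 and -1.65 for CXCL10. The difference between the days was not tested, since each group was 1 library.

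Barcodes that the filters had removed also held chemokine UMIs. In the 259 removed barcodes of shAPC day 3, CCL5 was at 11.1 CPM (8.54 to 14.3, 62 UMIs) and CXCL10 at 7.01 CPM (4.98 to 9.58, 39 UMIs), against 4.01 CPM (2.41 to 6.26) and 1.90 CPM (0.868 to 3.60) in the 355 removed barcodes of shScr day 3.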

How the results depend on the processing

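Every alternative left CCL5, CXCL10 and CXCL11 higher in shAPC at day 3, IFNB1, CCL5 and CXCL10 lower and CXCL11 higher at day 7, and the 3 chemokines higher in IFNB1 cells, as log2 ratios of CPM. Of 141 alternative values for the main results, 86 stayed within the counting interval (or, for counts of genes, within 1.5 times) and 55 moved further, without a change of sign except in 3 differences in shares of cells at day 7. These were IFNB1, 0.00408 percentage points when thinned to 5000 UMIs, CXCL10, 0.117 percentage points higher in shAPC when thinned to 5000 UMIs, and CXCL11, -0.0749 when thinned to 2000 UMIs. Among genes named only for the IFNB1 cells, 47 of 91 values moved and none changed sign, and a bound that pointed away from the main direction was left without a value. No paired analysis was possible because each group is 1 library. Libraries could not be left out, since none would then remain in the group. The cause of the shifts was not tested, beyond the cells that an alternative leaves out. Few UMIs stand behind IFNL1, IFNB1 at day 7 and the genes with 1 UMI in the IFNB1 cells.

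Without the highest cell of each library the log2 ratio was at least 6.54 for IFNB1 at day 3, -1.61 for CCL5 at day 7 and 0.87 for CXCL11 at day 7. Without the IFNB1 cells, an alternative chosen after seeing the data, it was at least 2.21 for IFNB1, 4.82 for CCL5 and 3.04 for CXCL10 at day 3. With all deposited barcodes CCL5 was at 4.87 at day 3 and CXCL11 at 1.40 at day 7, and with a mitochondrial limit of 10% CXCL11 was at 1.40. CXCL10 at day 3 was at 3.41 by TMM, 3.42 by DESeq2 size factors and 3.21 as a mean over cells of CPM, a mean that gave -2.22 for CCL5 and -3.84 for CXCL10 at day 7.

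The difference in the share of cells at day 3, in percentage points, when thinned to 5000 UMIs, thinned to 2000 UMIs and counted from 2 UMIs, was 0.487, 0.446 and 0.508 for IFNB1, 7.41, 4.72 and 9.61 for CCL5, 2.91, 1.78 and 3.67 for CXCL10, and 2.19, 1.49 and 3.21 for CXCL11. Counted from 2 UMIs, 80.8% of CXCL11 cells had CXCL10.

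With IFNB1 cells taken from 1 UMI, the log2 ratio to the other cells was 3.26 for CCL5, 4.05 for CXCL10 and 3.95 for CXCL11, and from 5 UMIs it was 5.73, 6.53 and 6.45. As a mean over cells of CPM it was 4.56, 6.15 and 5.26, and without the cell with 585 IFNB1 UMIs 4.64, 1.92 and 4.76. It was 5.36 for CCL5 with cells thinned to 10000 UMIs and 5.26 for CXCL10 against cells within the same range of depth.

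The genes at least 2-fold higher and lower in shAPC at day 3 (1493 and 132) became 797 and 55 with at least 100 UMIs, 2446 and 375 with at least 4 UMIs in 1 library, and 732 and 372 by TMM. At day 7 (715 and 374) they became 238 and 210 with at least 100 UMIs and 1484 and 714 with at least 4 UMIs in 1 library. The summed interferon-stimulated genes of cells without a member, relative to shScr day 3, stood at 1.98 on the log2 scale as a mean over cells of CPM and at 2.03 with totals that leave out mitochondrial and ribosomal protein genes, both chosen after seeing the data.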
